A study of Homo sapiens with 6 samples.

Results

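SREBP1, encoded by SREBF1, and 9 enzymes of fatty acid synthesis, elongation and desaturation were followed in DU145 cells treated with or without taraxasterol (TAX). The 10 genes, SREBF1, ACLY, ACSS2, ACACA, FASN, SCD, ELOVL5, ELOVL6, FADS1 and FADS2, were found by their symbols among 23062 identifiers listed for each library, and all 10 were present once. They were listed for their role in this pathway, with the values of the comparison between TAX and control already known, so that comparison is described for them and not offered as evidence. DU145 is an androgen-independent human prostate cancer cell line derived from a brain metastasis. RNA sequencing covered 3 libraries of control cells kept in medium for 48 h and 3 libraries of cells treated with 56 µM TAX, a plant pentacyclic triterpene, for 48 h. All 6 libraries came from the same line, described as wild type, and grew in MEM with serum. TAX was dissolved in DMSO, and whether the control cells received DMSO is not given in the sources used here, so solvent and TAX cannot be told apart. The samples are numbered replicates of each group, and nothing states that they came from separate cultures, so every p below measures only the spread between these libraries.

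Fatty acids are built in the cytosol from acetyl-CoA, which ATP citrate lyase makes from citrate and ACSS2 makes from acetate. Acetyl-CoA carboxylase turns it into malonyl-CoA, fatty acid synthase joins these units into palmitate, elongases of the endoplasmic reticulum lengthen the chain, and desaturases put double bonds into it. SREBP1 is a transcription factor that is held in the endoplasmic reticulum by SCAP and INSIG proteins, is released by proteolysis and then activates most genes of this pathway. Prostate carcinomas are known for making much of their fatty acid themselves, and fatty acid synthase is often abundant in them.

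Expression was given as 1 value per gene and library, taken as FPKM, a fragment count scaled to transcript length and sequencing depth, so that levels can be set side by side between genes. The summed FPKM lay between 322483 and 363724 per library, the lowest sum was that of control replicate 3, and read numbers are unknown. Control replicate 3 also had the lowest median over the tested genes, 3.28 on the log2(FPKM + 1) scale against 3.44 to 3.46 in the other 5 libraries, and 72.3% of the tested genes had their lowest control value there. The epithelial markers EPCAM, CDH1, KRT8, KRT18, KRT19 and KRT7 were between 40.7 and 191 FPKM in every library. KLK3, KLK2 and FOLH1, markers of differentiated prostate epithelium, were listed at 0 in all 6 libraries. The 10 markers of leukocytes, endothelium, fibroblasts and adipocytes reached at most 2.08 FPKM, in COL1A1, and CD3E, DCN and ADIPOQ were listed at 0 in all 6 libraries. Their summed level was 2.32 to 2.63 FPKM in the control and 1.80 to 2.04 FPKM in the TAX libraries, without overlap, with COL1A1 at 0.723 times its control mean (limma adjusted p = 0.197). The 6 epithelial markers summed to 567 to 733 FPKM in the control and 724 to 769.8 FPKM with TAX, with overlap. EPCAM, KRT18 and KRT19 were at 1.10, 1.23 and 1.25 times control, with limma adjusted p of 0.57, 0.411 and 0.336. Each was without overlap, as were 14.6% of all tested genes in this direction. KRT8, KRT7 and CDH1 were at 1.09, 0.979 and 0.878 times control, each with overlap. The part of these markers in the values of the 10 genes was not tested. Within such bulk RNA, fewer cells with a transcript and less of it per cell cannot be told apart.

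Compared with control cells, the 3 desaturase genes had the lowest ratios of TAX to control among the 10, while SREBF1 and the genes that build palmitate lay close to control. SCD, the stearoyl-CoA desaturase that makes oleate, had a TAX mean of 0.754 times the control mean, FADS2 of 0.819 times and FADS1 of 0.861 times. The other 7 genes lay between 0.897 times (ACSS2) and 1.11 times (ELOVL6). On the log2(FPKM + 1) scale, which understates the change of low genes, 7 of the 10 genes were lower and 3 higher, with a median difference of -0.088. All 12359 tested genes, those that reached 1 FPKM in 3 or more of the 6 libraries, had a median of 0.054, and 30.9% of them were lower and 69.1% higher. Of the 10 genes, which all passed this filter, 0 had an adjusted p under 0.05 (limma, Benjamini-Hochberg over all tested genes), where 0.477% of all tested genes did and 0.162% did with a lower TAX level. At an unadjusted p under 0.05 (limma), 3 of the 10 genes, SCD, FADS1 and FADS2, were lower and 0 were higher, where 10.1% of all tested genes passed in either direction and 2.41% were lower. When control replicate 1 or 2 or any of the 3 TAX replicates was left out, this count was 1, SCD. Of all tested genes, 1.73% to 2.23% were lower at this threshold in those fits. Without control replicate 3 the count was 4, with ACSS2 added, and the share of all tested genes was 5.59%. Over all tested genes 20 were lower and 39 higher at an adjusted p under 0.05 (limma), and with the libraries centred on their medians 50 were lower and 46 higher. Since the 10 genes were listed with this comparison known, nothing is read from these counts.

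**Figure D1:**
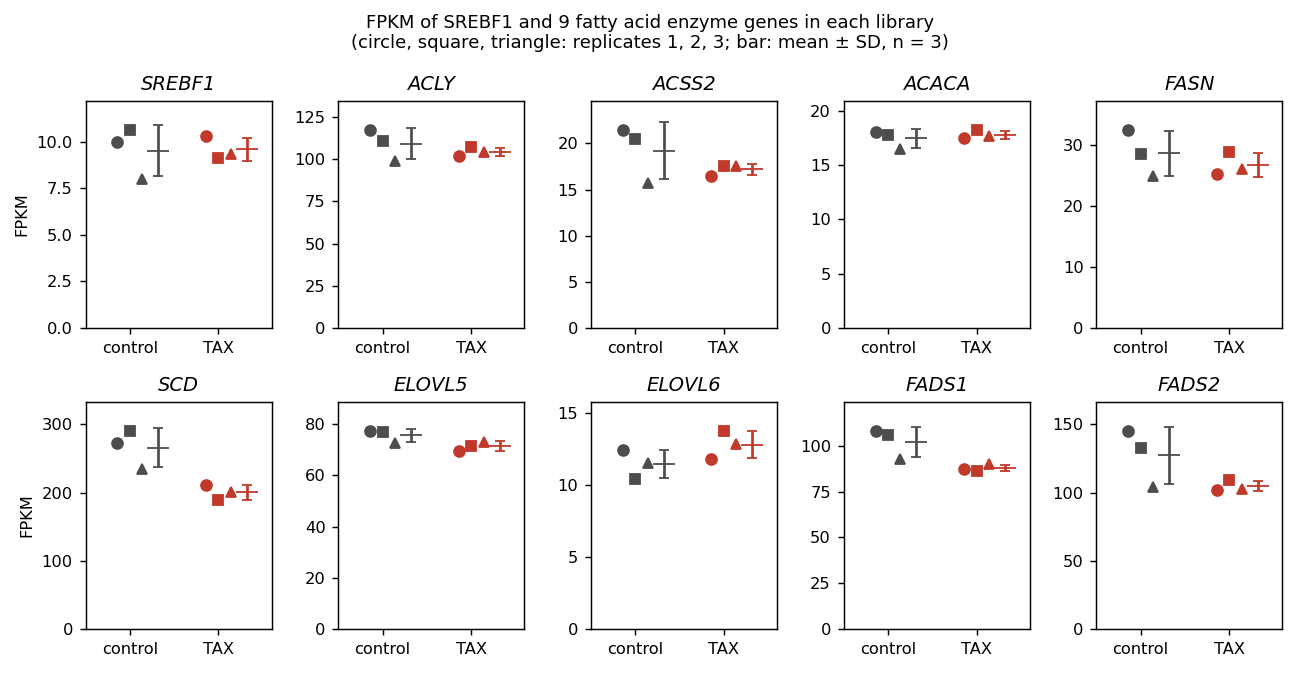
FPKM (vertical axes, each from 0) of SREBF1 and the 9 enzyme genes in each library of control and TAX-treated cells, with the group mean and SD (n = 3) beside the points. The TAX points of SCD and FADS1 lie below all control points, those of the other 8 genes overlap with control, and control replicate 3, the triangle, is the lowest control in 9 of the 10 panels.

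In control cells the 10 genes spread widely in level. SCD was the highest at 266 ± 29 FPKM (SD, n = 3), above 98.7% of the tested genes by its mean over the 6 libraries. FADS2 followed with 128 ± 20.8 FPKM, ACLY with 109 ± 9.29 FPKM and FADS1 with 102 ± 8.03 FPKM (SD, n = 3 each), and the control values of FADS2 and ACLY overlapped, as did those of ACLY and FADS1. ELOVL5 had 75.7 ± 2.54 FPKM (SD, n = 3), apart from its neighbours on both sides. FASN, at 28.7 ± 3.70 FPKM (SD, n = 3), stood lower than ACLY although both act in the same chain, and was above 80.1% of the tested genes. The lowest 4 were ACSS2 with 19.2 ± 3.05 FPKM, ACACA with 17.4 ± 0.840 FPKM, ELOVL6 with 11.4 ± 1.02 FPKM and SREBF1 with 9.54 ± 1.39 FPKM (SD, n = 3 each). Within this group, control values overlapped between ACSS2 and ACACA and between ELOVL6 and SREBF1. Together the 3 desaturase genes held 63.4% to 65.7% of the summed FPKM of the 10 genes in the control libraries and 59.2% to 61.3% in the TAX libraries, without overlap.

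SREBF1, on chromosome 17 from 17810399 to 17837002 (GRCh38, GENCODE 29, minus strand), codes for SREBP1. In the order of replicates 1, 2 and 3, which holds for every gene below, its control values were 10.0, 10.6 and 7.97 FPKM and its TAX values 10.3, 9.12 and 9.33 FPKM. Every TAX value lay inside the control range, and the difference was 0.011 on the log2(FPKM + 1) scale (standard error 0.105, 95% interval -0.22 to 0.24). This sign was not stable, since with each library centred on its median the difference was -0.047. Without control replicate 3 it was -0.10, and without control replicate 2 it was 0.085. In GENCODE 29, 556 of the 8030 exonic bases of SREBF1 are shared with RAI1 on the other strand, and whether reads were counted by strand is not given in the sources used here. RAI1 averaged 3.09 FPKM. The mRNA level of SREBF1 does not show how much SREBP1 was cleaved into its active form.

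The partners of SREBP1 were compared in the same fit. SREBF2, which codes for SREBP2, the form more tied to cholesterol synthesis, was 5.74 to 5.99 times as high in FPKM as SREBF1 in the control libraries and 5.11 to 5.59 times in the TAX libraries. SCAP, the escort protein of both SREBPs, averaged 14.3 ± 1.45 FPKM without and 14.9 ± 0.692 FPKM with TAX (SD, n = 3 per group), a difference within the spread between replicates (limma adjusted p = 0.839). INSIG1, which retains the SCAP complex in the endoplasmic reticulum and is itself an SREBP target, had 32.3, 34.8 and 26.7 FPKM in the control and 19.6, 23.4 and 21.2 FPKM in the TAX libraries. All TAX values of INSIG1 lay under all control values, with a difference of -0.52 on the log2 scale that did not pass after adjustment (standard error 0.108, adjusted p = 0.0862 from limma). INSIG1 did pass with the libraries centred on their medians, with quantile normalization and with rescaled FPKM (adjusted p = 0.0271, 0.0219 and 0.0422 from limma). It did not pass when any 1 library was left out (adjusted p = 0.0506 to 0.28 from limma). Nor did it pass with the replicate number as a block (0.0733) or without a filter (0.302). INSIG2 had 12.8 ± 2.66 FPKM against 14.5 ± 2.72 FPKM with TAX (SD, n = 3 per group; limma adjusted p = 0.724). Of the 21 tested genes of SREBP processing and of the factors that bind beside SREBP1, LXR and ChREBP included, 9 were lower and 12 higher, with a median difference of 0.023, and 0 passed after adjustment, with 3 lower at an unadjusted p under 0.05 (limma). Those 3 were INSIG1, MLXIPL and NFYB. MLXIPL, the gene of the glucose-responsive lipogenic factor ChREBP, had a control mean of 2.04 ± 0.376 FPKM against 1.48 ± 0.0760 FPKM with TAX (SD, n = 3 per group; limma adjusted p = 0.373). NFYB codes for a subunit of the CCAAT-binding factor NF-Y that works with SREBPs. It had 15.2 ± 0.620 FPKM against 13.0 ± 0.290 FPKM with TAX (SD, n = 3 per group, limma adjusted p = 0.373). MLXIPL and NFYB, like INSIG1, had all TAX values under control, which held for 3.34% of all tested genes. The oxysterol receptor LXR drives SREBF1 in many tissues. Of 7 tested LXR targets 3 were lower and 4 higher, and 0 had an adjusted or an unadjusted p under 0.05 (limma), with LPCAT3 at -0.089 and MYLIP at -0.09 on the log2 scale.

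ACLY and ACSS2 supply the acetyl-CoA. ACLY, on chromosome 17 from 41866908 to 41930542, had 117, 111 and 99.0 FPKM in the control and 102, 107 and 104 FPKM in the TAX libraries. All 3 TAX values of ACLY lay inside the control range, with a difference of -0.063 on the log2 scale (standard error 0.088, 95% interval -0.26 to 0.13). It was -0.0098 without control replicate 1 and -0.13 without control replicate 3. ACLY was also the gene nearest to the mean profile of the 10, at a root mean square distance of 0.026 log2 units over the 6 libraries. ACSS2, on chromosome 20 from 34872146 to 34927962, had 21.4, 20.5 and 15.7 FPKM in the control and 16.5, 17.5 and 17.6 FPKM in the TAX libraries. Here control replicate 3 lay below all TAX libraries and the other 2 controls above them. The difference of ACSS2 was -0.14 on the log2 scale (standard error 0.110), -0.27 without control replicate 3, -0.057 without control replicate 1 and -0.086 without control replicate 2.

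ACACA and FASN turn acetyl-CoA into palmitate. ACACA, the cytosolic acetyl-CoA carboxylase, on chromosome 17 from 37084988 to 37406818, had 18.1, 17.8 and 16.5 FPKM in the control and 17.5, 18.2 and 17.7 FPKM in the TAX libraries, a difference of 0.029 on the log2 scale (standard error 0.0757, 95% interval -0.14 to 0.20), and of -0.029 with the libraries centred. Its mitochondrial paralog ACACB, which takes part in the control of fatty acid oxidation, had a control mean of 3.37 ± 0.274 FPKM against 3.18 ± 0.559 FPKM with TAX (SD, n = 3 per group; limma adjusted p = 0.834). FASN, the multifunctional synthase, on chromosome 17 from 82078333 to 82098332, had 32.4, 28.6 and 25.0 FPKM in the control and 25.3, 28.9 and 26.0 FPKM in the TAX libraries. The control libraries alone spanned more than the distance between the group means. Its difference was -0.091 on the log2 scale (standard error 0.102), with a 95% interval from -0.32 to 0.14. It ran from -0.0017 without control replicate 1 to -0.18 without control replicate 3, with -0.055 and -0.15 without TAX replicates 1 and 2. Against ACLY, FASN held a ratio of 0.253 to 0.277 in control and of 0.249 to 0.271 in TAX-treated cells.

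ELOVL5 and ELOVL6 lengthen the chain, ELOVL5 mainly for polyunsaturated and ELOVL6 for saturated and monounsaturated acids. ELOVL5, on chromosome 6 from 53267398 to 53349179, had 77.2, 77.1 and 72.7 FPKM in the control and 69.3, 71.3 and 73.2 FPKM in the TAX libraries. TAX replicate 3 lay above control replicate 3, so the groups overlapped, and the difference was -0.085 on the log2 scale (standard error 0.0769). ELOVL6, on chromosome 4 from 110045846 to 110199199, had 12.4, 10.4 and 11.5 FPKM in the control and 11.8, 13.7 and 12.8 FPKM in the TAX libraries. It differed from the other 9 genes in that control replicate 3 was not its lowest control. ELOVL6 was the most positive of the 10, at 0.14 on the log2 scale (standard error 0.0906, 95% interval -0.056 to 0.35), and 0.082 without control replicate 2. The ratio of ELOVL6 to ELOVL5 was 0.134 to 0.161 in the control and 0.170 to 0.192 in the TAX libraries, without overlap.

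The elongase family as a whole was led by ELOVL5 and ELOVL1 in these cells. ELOVL1, which makes very long saturated chains, had 47.1 ± 7.22 FPKM in control, followed by ELOVL6, ELOVL2 with 11 ± 0.610 FPKM, ELOVL7 with 6.95 ± 0.592 FPKM, ELOVL4 with 2.17 ± 0.0693 FPKM and ELOVL3 with 0.450 ± 0.0982 FPKM (SD, n = 3 each). Only the control values of ELOVL6 and ELOVL2 overlapped between neighbours in this order. ELOVL2, an elongase of long polyunsaturated acids, had 11.5, 11 and 10.3 FPKM in the control and 13.1, 13.7 and 13.1 FPKM in the TAX libraries. The TAX values of ELOVL2 all lay above control, as did those of 14.6% of all tested genes. Its difference of 0.26 on the log2 scale did not pass after adjustment (standard error 0.0775, adjusted p = 0.269 from limma). ELOVL1, ELOVL4 and ELOVL7 differed by 0.18, 0.030 and 0.022 on the log2 scale, each with overlap, and with the libraries centred the latter 2 were -0.028 and -0.035.

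**Figure D2:**
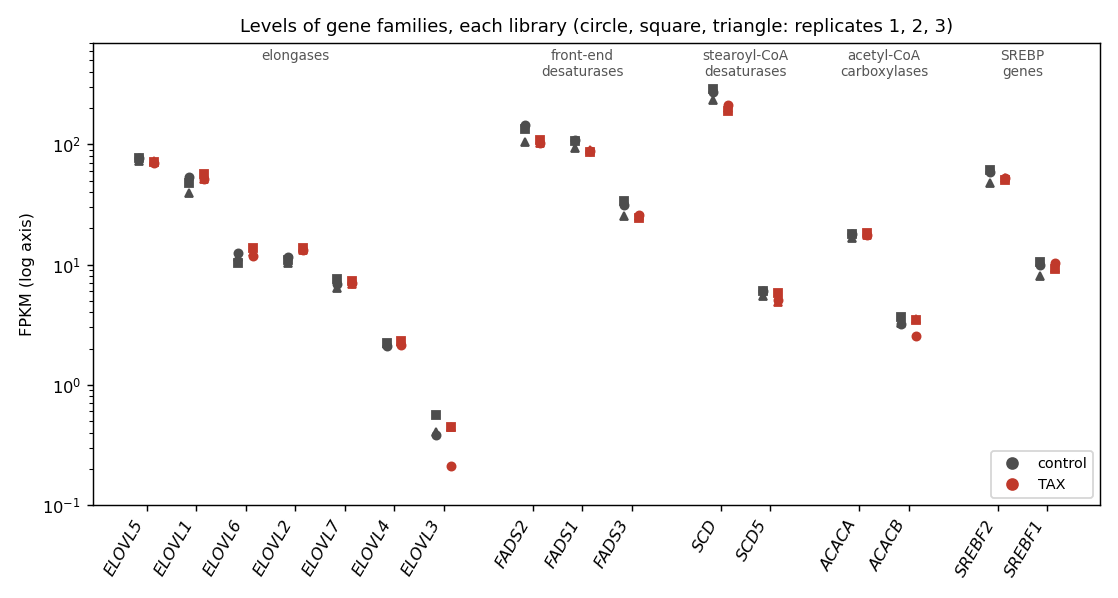
FPKM on a log axis of the elongases, front-end desaturases, stearoyl-CoA desaturases, acetyl-CoA carboxylases and SREBP genes in each library, ordered by control mean within a family. Between the highest and lowest paralog the control mean falls from 75.7 to 0.450 FPKM in the elongases and from 266 to 5.85 FPKM in the stearoyl-CoA desaturases, far more than the distance between control and TAX points of any single gene.

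SCD, on chromosome 10 from 100347124 to 100364834, had 273, 289.9 and 234 FPKM in the control and 211, 189 and 200.3 FPKM in the TAX libraries. Every TAX value lay under every control value, and the gap between the nearest libraries was that between control replicate 3 and TAX replicate 1. The difference was -0.40 on the log2 scale (standard error 0.102, 95% interval -0.63 to -0.18), and it lay between -0.49 and -0.34 when each library in turn was left out. With the libraries centred on their medians it was -0.46, and SCD then had an adjusted p of 0.0329 (limma). SCD5, the second human stearoyl-CoA desaturase, was far lower, with a control mean of 5.85 ± 0.366 FPKM against 5.27 ± 0.488 FPKM with TAX (SD, n = 3 per group; limma adjusted p = 0.633).

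Control replicate 3 was low for most of the 10 genes, so SCD was also set against the other genes inside each library, where the scale of a library cancels. The ratio of SCD to ACLY was 2.33, 2.61 and 2.36 in the control and 2.08, 1.78 and 1.92 in the TAX libraries. The ratio of SCD to ACACA was 15.1, 16.3 and 14.2 in the control and 12, 10.4 and 11.3 in the TAX libraries, and that of SCD to SREBF1 was 27.2, 27.3 and 29.3 against 20.6, 20.7 and 21.5. In these 3 ratios the groups did not overlap, nor did they against FASN, ELOVL5 and ELOVL6, although the ratio of SCD to FASN came close, at 8.42 in control replicate 1 and 8.33 in TAX replicate 1. All these ratios share SCD, so they are not separate observations. The ratio of FADS2 to ACLY, at 1.06 to 1.24 in the control and 0.982 to 1.03 in the TAX libraries, did not overlap either. Nor did that of FADS1 to ACLY, at 0.918 to 0.953 and 0.810 to 0.862. The ratios show unequal levels and come from the comparison by which the genes were listed.

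**Figure D3:**
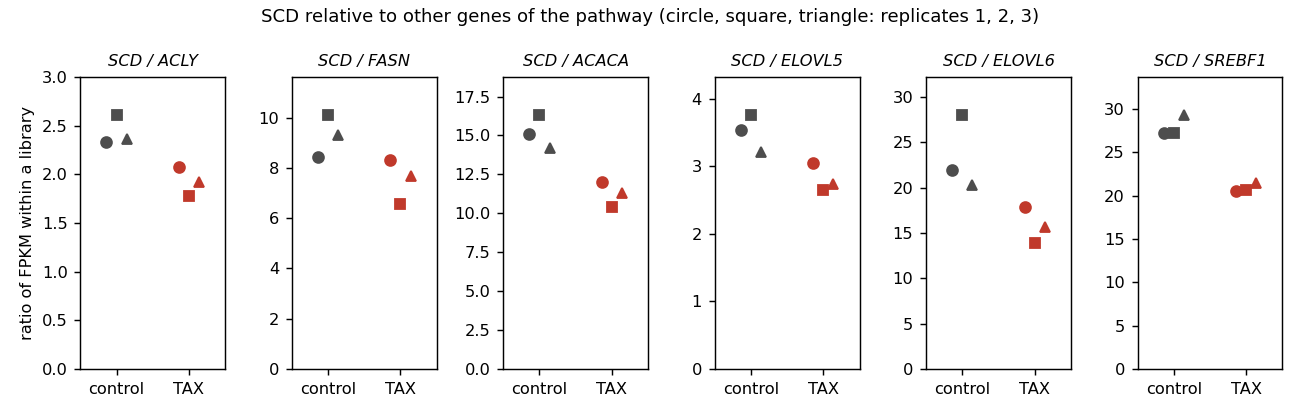
Ratio of SCD to 6 other genes of the pathway, computed from the FPKM within each library, with 3 control and 3 TAX libraries per panel and axes from 0. In all 6 panels the TAX points lie under the control points, with the means falling from 2.43 to 1.92 against ACLY and from 27.9 to 20.9 against SREBF1.

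FADS1 and FADS2, the delta-5 and delta-6 desaturases that make long polyunsaturated acids from dietary precursors, have overlapping spans on chromosome 11, FADS1 from 61799625 to 61829318 on the minus strand and FADS2 from 61792980 to 61867354 on the plus strand. FADS1 had 108, 106 and 92.9 FPKM in the control and 87.5, 86.3 and 90.0 FPKM in the TAX libraries. FADS2 had 145, 133 and 104 FPKM in the control and 102, 109 and 103 FPKM in the TAX libraries. FADS1 did not overlap between groups, while for FADS2 control replicate 3 lay below TAX replicate 2. SCD and FADS1 were the 2 of the 10 genes with all TAX values under control, which held for 3.34% of all tested genes. The differences were -0.21 for FADS1 (standard error 0.0859, 95% interval -0.40 to -0.020) and -0.27 for FADS2 (standard error 0.117, 95% interval -0.53 to -0.014) on the log2 scale. Without control replicate 3 they were -0.28 and -0.41, and without control replicate 1 they were -0.17 and -0.18. The ratio of FADS1 to FADS2 was 0.743 to 0.890 in control and 0.790 to 0.878 in TAX-treated cells, with overlap. In GENCODE 29 the 2 genes share 490 exonic bases on opposite strands, 4.79% of the exonic bases of FADS1 and 4.44% of those of FADS2, so part of their reads may be counted for either gene. FADS2 shares a further 49 bases with FEN1 on the same strand. FADS3, the third gene of the cluster, whose role is in sphingolipid desaturation, had 31.1, 34.0 and 25.4 FPKM in the control and 26.0, 24.3 and 25.2 FPKM in the TAX libraries. For FADS3 control replicate 3 again lay among the TAX values, with a difference of -0.24 on the log2 scale (standard error 0.105, adjusted p = 0.475 from limma).

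**Figure D4:**
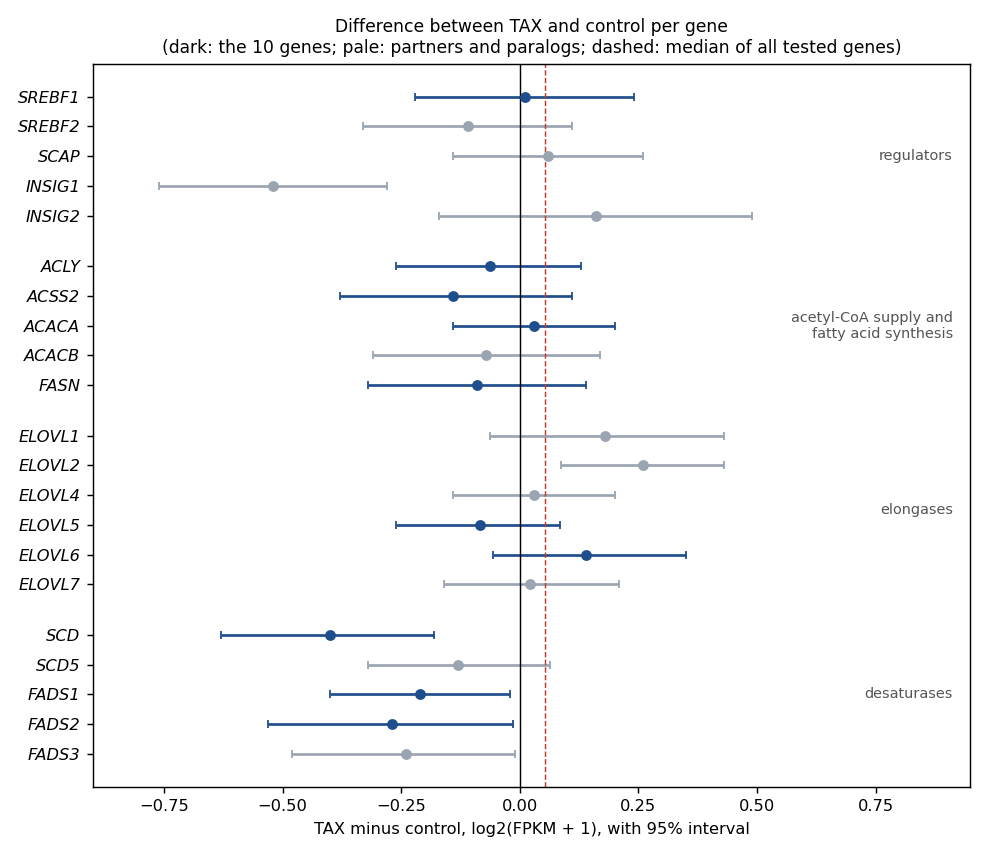
Difference between TAX and control on the log2(FPKM + 1) scale with its 95% interval from limma, for the 10 genes (dark) and their partners and paralogs (pale), grouped by role, where the dashed line marks the median of all tested genes at 0.054. SCD, at -0.40, and INSIG1, at -0.52, lie farthest to the left, while the intervals of SREBF1, ACLY, ACSS2, ACACA, FASN, ELOVL5 and ELOVL6 span 0.

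The DNA before the start of these genes was searched for the letters that SREBPs and their partners are known to bind, in the windows of RefSeq (GRCh38.p14) from 250 bases before to 50 bases after each annotated start. Windows were given for 9 of the 10 genes, 14 windows in all, and FASN had none. The search covered both strands for TCACNCCAC, the core of the sterol regulatory element, CCAAT, the box of NF-Y, GGGCGG, the GC box of Sp1, and CACGTG, an E-box, none of which contains another. TCACNCCAC was found in 0 of the 14 windows and in 1.13% of all 35116 windows. CCAAT was found in 8 of the 14 windows and in 34.6% of all windows. By gene this was 6 of 9, namely ACLY, ACSS2, ACACA, SCD, ELOVL5 and FADS2. Windows of the same gene can overlap, as those of ACLY do with the same boxes, so the windows are not independent. GGGCGG was found in 11 of the 14 windows, those of 8 of the 9 genes, and in 45.0% of all windows. CACGTG was found in 1, that of ELOVL5, and in 7.26% of all windows. Matches are a description of these windows and not of binding. Shown are the parts that lie in no annotated exon of GENCODE 29, for SCD, FADS1, FADS2 and ACLY. SCD had the lowest difference of the 10 genes, and FADS1 and FADS2 are the other 2 desaturases. The windows of ACLY, like that of SCD, hold 2 CCAAT boxes, as do that of ELOVL5 and 1 of ACACA. ACLY had a difference of -0.063 on the log2 scale, and of -0.12 with the libraries centred. A link between boxes and differences was not tested. Capitals mark CCAAT or its reverse complement ATTGG, for ACLY and FADS2 the more downstream of their RefSeq starts was used, and each sequence reads 5′ to 3′ on the strand of the gene, at chr10:100346983-100347123 (plus) for SCD, chr11:61817198-61817253 (minus) for FADS1, chr11:61816154-61816255 (plus) for FADS2 and chr17:41919023-41919201 (minus) for ACLY.
SCD: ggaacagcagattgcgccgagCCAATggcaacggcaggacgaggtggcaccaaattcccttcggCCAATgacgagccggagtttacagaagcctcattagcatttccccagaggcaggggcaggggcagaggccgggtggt
FADS1: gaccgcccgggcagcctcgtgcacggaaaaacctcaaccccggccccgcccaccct
FADS2: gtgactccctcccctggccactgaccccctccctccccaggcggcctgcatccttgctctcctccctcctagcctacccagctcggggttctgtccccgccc
ACLY: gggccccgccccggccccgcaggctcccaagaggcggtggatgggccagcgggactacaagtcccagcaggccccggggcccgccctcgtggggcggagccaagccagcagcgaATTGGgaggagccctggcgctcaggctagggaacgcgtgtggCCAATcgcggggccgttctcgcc
The boxes of SCD begin 229 and 186 bases before its start and point the same way, and those of ACLY begin 136 and 94 bases before its start and point in opposite ways. At least 2 such boxes were present in 10.8% of all windows. The printed parts of FADS1 and FADS2 hold none, and the whole window of that FADS2 start holds 1, which is not in the printed part.

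Around these genes, the neighbouring steps of fatty acid metabolism gave few differences, and 0 of their genes passed after adjustment in limma. Of 22 tested further genes of synthesis, elongation and desaturation 7 were lower and 15 higher, with a median of 0.047, and 1 was lower and 2 were higher at an unadjusted p under 0.05. The 2 higher genes were ELOVL2 and MID1IP1, whose product stimulates acetyl-CoA carboxylase, with a control mean of 8.64 ± 0.541 FPKM against 10.0 ± 0.229 FPKM with TAX (SD, n = 3 per group; limma adjusted p = 0.450). Of 9 genes of NADPH supply, 1 was lower, IDH1 at -0.23, and 1 higher, RPIA at 0.26 on the log2 scale, at an unadjusted p under 0.05, and TALDO1 came next at 0.15. Of 23 tested genes that activate, carry or esterify fatty acids, 2 were lower and 3 higher at that threshold. Among these, DBI, the acyl-CoA binding protein, had 91.2 ± 6.52 and 71.9 ± 6.63 FPKM, SLC27A4, an acyl-CoA synthetase that takes up fatty acids, had 15.2 ± 1.86 and 19.6 ± 1.67 FPKM, and GPAT4, which starts glycerolipid synthesis, had 18.2 ± 1.46 and 21.4 ± 1.14 FPKM without and with TAX (SD, n = 3 per group). Of 23 tested genes of fatty acid oxidation, 0 were lower and 2 higher at that threshold, PPARD at 0.28 and ACADS at 0.25, followed by ECI2 at 0.17 on the log2 scale. As percentages of all tested genes, 2.41% were lower and 7.73% higher at an unadjusted p under 0.05.

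The genes nearest in kind are those of cholesterol synthesis and uptake, which SREBP2 drives. Of 23 tested genes 21 had a lower TAX mean, with a median of -0.25 on the log2 scale against -0.088 for the 10 genes, and 13 were lower at an unadjusted p under 0.05, while 1, MSMO1, passed after adjustment (difference -0.54, adjusted p = 0.0297 from limma). MSMO1 no longer passed when any 1 of the 6 libraries was left out (adjusted p = 0.0511 to 0.118 from limma). The difference between both lists was not tested. SCD, at -0.40, and FADS2, at -0.27, lay below the median of the cholesterol genes, and FADS1 and the other 7 genes lay above it.

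**Figure D5:**
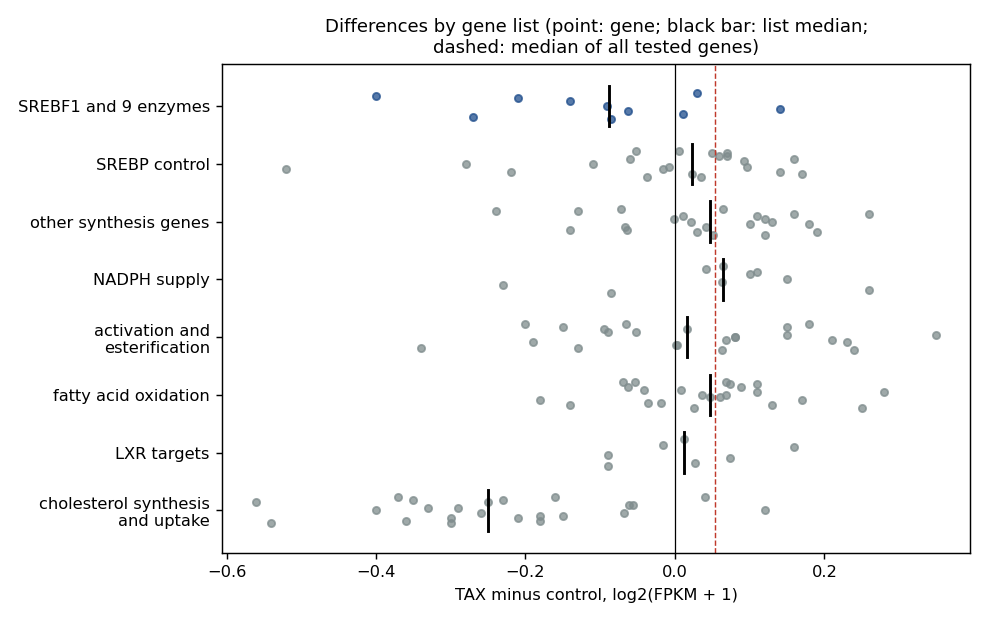
Difference between TAX and control on the log2(FPKM + 1) scale for every tested gene of 8 lists, with the median of each list as a black bar and that of all tested genes, 0.054, as a dashed line. SREBF1 and the 9 enzymes have a median of -0.088, with SCD at the left end, and the cholesterol genes a median of -0.25, while the other 6 lists have medians between 0.012 and 0.064.

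The mean profile of the 10 was set against 8535 other tested genes with a mean of at least 5 FPKM, other lipid genes included. The 5 genes most like it were DNAJB12, GPC1, ECH1, RNF20 and BRD8. Their root mean square distance from that mean profile was 0.015 to 0.023 log2 units over the 6 libraries. In all 5, control replicates 1 and 2 were above the other 4 libraries, as in DNAJB12 with 17.7, 16.6 and 14.6 FPKM in the control and 15.0, 15.6 and 15.1 FPKM in the TAX libraries. The 10 genes themselves lay farther from their mean profile, from 0.026 log2 units in ACLY to 0.166 in ELOVL6, with SCD at 0.163. The 5 genes are thus like the mean and not like each member. In the summed FPKM of the 10 genes, 814, 805 and 679 in the control and 653, 649.9 and 654 in the TAX libraries, control replicates 1 and 2 were also the highest, and control replicate 3 lay above the TAX libraries.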

How the data were processed

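Total RNA of 6 DU145 samples, 3 control and 3 TAX, was made into mRNA libraries (Hieff NGS Ultima Dual-mode kit) and sequenced. The submitters' processing notes name HISAT2 2.2.0, StringTie 2.1.2 and GRCh38. The authors deposited 1 table per library with 23062 identifiers, and the deposited values were taken as FPKM, a unit the file headers do not name. FPKM is relative within a library, so a few abundant genes shift all others. The values gave no whole-read steps, so the depth, and with it counting error, is unknown.

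Groups followed the labels. In R 4.3.3, limma 3.58.1 (empirical Bayes with trend) was fitted to log2(FPKM + 1) of the 12359 genes that reached 1 FPKM in 3 or more of the 6 libraries, with Benjamini-Hochberg adjustment over all of them and 95% intervals. An exact two-sided permutation test of 3 against 3 libraries cannot give a p below 0.1 and was not used. The fit was tested on simulated data. The 14 alternatives changed the pseudocount, filter, scaling, trend, replicate block or left out 1 library. The members and gene lists were chosen with earlier results of these data known. All 10 genes are named. From each other list the text names the genes past the adjusted threshold or, where there were none, the 3 with the smallest p, and the partners and paralogs of the 10 genes. The genes most like the mean profile of the 10 were those with the smallest root mean square distance, over the 6 libraries, from that centred log2 profile. Positions came from GENCODE 29 (GRCh38), where 19458 identifiers matched a gene name, and promoter sequences from RefSeq (GRCh38.p14). Some marker genes are not reported here.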

Additional observations from a re-analysis of the deposited data

How the results depend on the processing

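The median of the 10 genes relative to all tested genes stayed negative under all 14 alternatives. The count of genes lower at an unadjusted p under 0.05, 3, was 5 with quantile normalization and 5 with the libraries centred on their medians, where ACSS2 and ELOVL5 joined and 5.79% and 6.59% of all tested genes were lower. It ranged from 1 to 4 when 1 library was left out, where 1.73% to 5.59% of all tested genes were lower. The count at an adjusted p under 0.05, 0, was 1 under both scalings, SCD with an adjusted p of 0.0403 and 0.0329 (limma), and over its 14 alternatives this p ran from 0.0329 to 0.49. Over all tested genes, 59 genes had an adjusted p under 0.05 (limma), against 95 with quantile normalization, 96 with centring, 1 without a filter, 26 with the replicate block and 19 to 40 with 1 library left out. MSMO1 kept an adjusted p under 0.05 neither without a filter (0.123) nor with the block (0.0608), nor when any 1 library was left out (0.0511 to 0.118).

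Signs turned for genes near 0. SREBF1 was -0.044 with quantile normalization, -0.047 centred, -0.015 with FPKM rescaled to 1 sum, and between -0.10 (without control replicate 3) and 0.085 with 1 library left out, also turning without TAX replicate 1 (-0.035). ACACA was -0.035 with quantile normalization, -0.029 centred, and between -0.0089 (without control replicate 3) and 0.054 with 1 library left out. SCAP was -0.0014 with quantile normalization and between -0.020 (without control replicate 3) and 0.11. ELOVL7 was -0.030, -0.035 and -0.0026 with quantile normalization, centring and rescaling and between -0.032 (without control replicate 3) and 0.076, and ELOVL4 was -0.028 centred. ACACB ran from -0.13 to 0.044 (without TAX replicate 1), LPCAT3 from -0.17 to 0.0052 (without control replicate 1) and MYLIP from -0.16 to 0.019 (without control replicate 2). The causes were not tested.

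With the replicate number as a block, 2 of the 10 genes, SCD and FADS2, were lower at an unadjusted p under 0.05 (limma). This held for 2.29% of all tested genes. An adjusted p under 0.05 was reached by 0 of the 10 genes and by 0.21% of all tested genes (limma). Deviations of same-numbered libraries correlated at -0.117, -0.333 and -0.171 across genes, so the numbers were not taken as pairs. Between libraries of unlike number the correlations ran from -0.167 to 0.292. The highest were those of control replicate 3 with TAX replicate 2, at 0.292, and of control replicate 2 with TAX replicate 1, at 0.278. A pairing under another numbering was not tested. The unknown depth and 3 libraries per group limit the precision.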
